A study of Mus musculus with 12 samples.

Results

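The 43 genes described here code for proteins that run mitosis and the G2 phase before it, and they were taken by symbol from the authors' comparison of CD8 T cells in mice that lack linker histone H1 genes with wild-type mice. All 43 were found among the 24421 genes of that comparison, and all carried an adjusted p-value. The study sequenced polyadenylated RNA of splenic CD8 T cells, B cells and CD4 T cells, 500000 sorted cells a sample, in 12 samples from C57BL/6 mice. It had 6 groups of 2 animals, a cTKO and a WT group for each cell type. The values used here come from the CD8 T cells alone, with 1 female and 1 male animal in the cTKO group and 1 female and 1 male in the WT group. cTKO stands for the knockout of linker histone H1 genes, proteins that bind the nucleosome and help to compact chromatin. The labels give no treatment and no time point for either group, and the sources used here do not give the alleles, what drove their deletion, what the WT animals carry or how old the animals were.

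A dividing cell turns on these genes late in its cycle. Cyclin-dependent kinase CDK1 with cyclin B starts mitosis, condensins pack the chromosomes, kinetochores and motor proteins attach them to the spindle, a checkpoint waits for the last attachment, and the anaphase-promoting complex then marks securin and cyclin B for destruction so that the cell can divide. Most of these genes are held down in resting cells by the DREAM complex and are turned on in G2 by MuvB with B-MYB and FOXM1. Resting splenic T cells divide little, and activated CD8 T cells divide fast, and the level of these genes in bulk RNA is widely read as a sign of cycling cells. In such bulk samples fewer cells of a type and less RNA per cell cannot be told apart.

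MuvB reaches these promoters through a short element, the cell cycle genes homology region (CHR), and NF-Y binds the CCAAT boxes that often lie near it. Promoter sequence was at hand for 37 of the 43 genes (RefSeq, GRCm38.p6, 250 bases before and 50 after an annotated start). No promoter was matched for Ccna2, Kif20a, Foxm1, Tpx2, Aurkb and Smc4. The 8 stretches below show the bases just before the start for 6 called genes that hold a CHR match there, in order of their p-values, and for 2 that do not hold that core in the window, Nusap1 and Bub1. Capitals mark TTTGAA or its reverse complement TTCAAA (the CHR core) and CCAAT or its reverse complement ATTGG.
Ncapg: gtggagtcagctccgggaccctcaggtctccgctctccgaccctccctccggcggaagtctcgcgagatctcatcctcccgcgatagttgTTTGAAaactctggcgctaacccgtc
Top2a: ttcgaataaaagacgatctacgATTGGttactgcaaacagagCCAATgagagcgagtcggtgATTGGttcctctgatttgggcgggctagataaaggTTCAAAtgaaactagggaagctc
Kif11: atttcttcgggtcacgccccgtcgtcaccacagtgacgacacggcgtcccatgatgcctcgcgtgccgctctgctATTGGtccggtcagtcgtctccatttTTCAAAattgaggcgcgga
Ckap2l: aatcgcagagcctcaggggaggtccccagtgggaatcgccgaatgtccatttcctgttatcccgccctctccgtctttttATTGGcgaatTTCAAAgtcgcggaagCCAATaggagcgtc
Ube2c: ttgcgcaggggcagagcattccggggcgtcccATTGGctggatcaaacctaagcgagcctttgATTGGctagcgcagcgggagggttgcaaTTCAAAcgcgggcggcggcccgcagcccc
Cdk1: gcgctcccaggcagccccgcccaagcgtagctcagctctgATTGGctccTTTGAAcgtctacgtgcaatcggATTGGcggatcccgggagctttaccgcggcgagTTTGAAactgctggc
Nusap1: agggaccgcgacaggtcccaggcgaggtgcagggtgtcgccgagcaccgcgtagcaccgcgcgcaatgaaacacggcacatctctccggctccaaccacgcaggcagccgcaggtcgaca
Bub1: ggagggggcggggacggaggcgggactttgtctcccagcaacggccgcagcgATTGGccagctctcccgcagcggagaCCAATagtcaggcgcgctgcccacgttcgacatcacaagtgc
Each stretch is written 5′ to 3′ on the strand of its gene. On GRCm38.p6 they lie at chr5:45669805-45669920 (plus strand) for Ncapg, chr11:99024190-99024309 (minus) for Top2a, chr19:37376262-37376381 (plus) for Kif11, chr2:129297213-129297332 (minus) for Ckap2l, chr2:164769809-164769928 (plus) for Ube2c, chr10:69352913-69353032 (minus) for Cdk1, chr2:119618178-119618297 (plus) for Nusap1 and chr2:127831860-127831979 (minus) for Bub1. The CHR core begins 30 bases before the start in Ncapg and Ckap2l, 29 in Ube2c, 23 in Top2a and 19 in Kif11, and Cdk1 holds it at 71 and 15 bases before the start.

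Over the whole windows, TTTGAA on either strand was present in 29 of the 37 promoters (78.4%), against 20.2% of the 27025 genes with a promoter and 14.7% of the genes with an adjusted p. CCAAT on either strand was present in 28 of the 37 (75.7%), against 41.1% of all promoters. Both were present in 25 of the 37, against 7.97% of all. Neither motif contains the other. The variant core TTCGAA was present in 3 of the 37 (8.11%), Bub1, Bub1b and Top2a, against 1.80% of all promoters. In Bub1 it begins 14 bases after the start, outside the stretch shown. Most CHR matches lay close to the start: 26 of the 37 promoters held one that began between 50 bases before and 50 after it, against 5.72% of all promoters. The match was present in 15 of 18 called genes with a promoter (83.3%) and in 14 of 19 that were not called (73.7%), among them Plk1, Cdc20 and Racgap1. It was absent from the window of Pttg1. Over other lists of cell cycle genes the share was 33 of 66 for further mitosis genes and 6 of 42 for DNA replication and G1/S genes. A match is a stretch of letters and was not tested as a binding site.

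**Figure D1:**
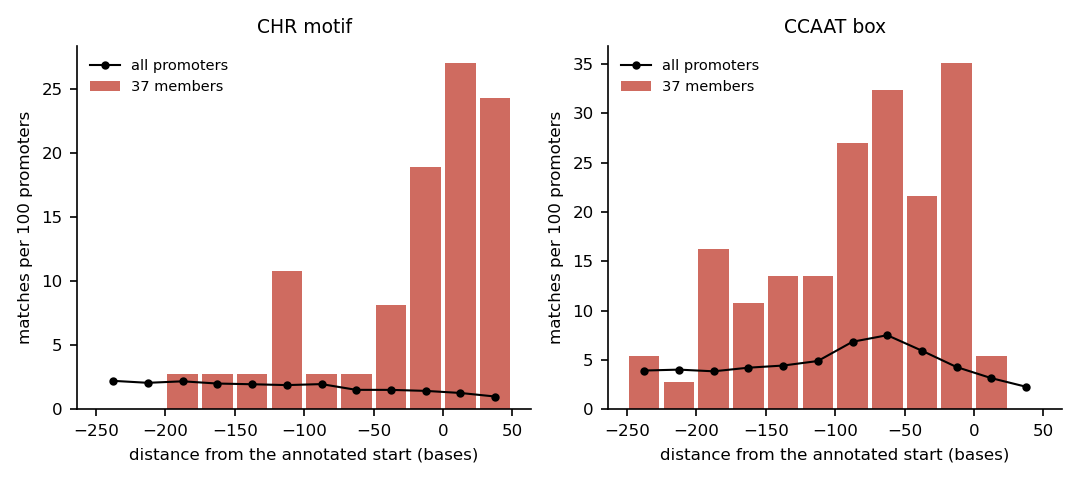
Matches to the CHR core (left) and to the CCAAT box (right) by distance from the annotated start in bins of 25 bases, as matches per 100 promoters, in the 37 members with a promoter (bars) and in all 27025 genes (line). CHR matches of the members crowd from 25 bases before to 50 bases after the start and CCAAT boxes within the 100 bases before it.

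The authors' deposited table holds, of the 43 genes, 20 that passed an adjusted p of 0.05 as higher in cTKO CD8 T cells, and 0 as lower. Over all 12972 genes with an adjusted p, 9.77% were called higher and 3.61% lower. The median log2 fold change of the 43 genes, cTKO over WT, was 1.17, and 40 of them were positive, beside a median of 0.04 over all genes with an adjusted p. The called genes rose by 2.30 to 5.22 times in the authors' deposited table. The list was proposed with results of these data known, so the counts describe the genes and are no independent evidence of their direction.

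The reads of each gene in single libraries were solved from its deposited mean, fold change and standard error, which gave 4 libraries, a larger and a smaller one for each genotype. Their size factors, the scale of each library against the others, were 1.21 (larger WT), 0.866 (smaller WT), 1.21 (larger cTKO) and 0.805 (smaller cTKO). By the Y-linked gene Kdm5d the smaller library of each genotype came from the male and the larger from the female (0, 479, 0 and 488 reads in the order larger WT, smaller WT, larger cTKO, smaller cTKO), so that size and sex cannot be told apart. The 3 linker histone genes Hist1h1c, Hist1h1d and Hist1h1e had 41, 5 and 64 reads in the larger WT library, 56, 11 and 112 in the smaller one and 0 in both cTKO libraries. The direction of the deposited fold changes was read from these genes. Values below are normalized reads, reads over the size factor, and each gene had at least 14 reads in every library.

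The larger cTKO library held the highest level of 39 of the 43 genes, and the smaller WT library the lowest level of 38. The background was the 8165 tested genes with recovered reads whose mean reached 50. Genes with a mean above 2000 were recovered only where a list named them, so most abundant genes are missing from it. In this background the larger cTKO library was highest for 34.9% of genes and the smaller WT library lowest for 18.6%. Against the mean of the WT libraries, the median gene of the 43 stood at 2.91 times in the larger cTKO library and at 1.48 times in the smaller one, where 37 of 43 were above the WT mean. Within a genotype the libraries differed too: the larger exceeded the smaller by a median of 1.47 times in WT (41 of 43 genes) and 2.06 times in cTKO (39 of 43 genes). The medians over all tested genes with recovered reads were 1.02 and 1.03. Compared by size, the larger cTKO library was a median of 2.48 times the larger WT library, and the smaller cTKO library 1.90 times the smaller WT library, with 40 of 43 genes above 1 in each. Across size, the smaller cTKO library was a median of 1.20 times the larger WT library. For 30 of the 43 genes both cTKO libraries were above both WT libraries, as for 27.6% of the 8165 background genes. For 2, Smc4 and Pttg1, both were below, as for 30.5% of the background genes. In the remaining 11 the groups overlapped.

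**Figure D2:**
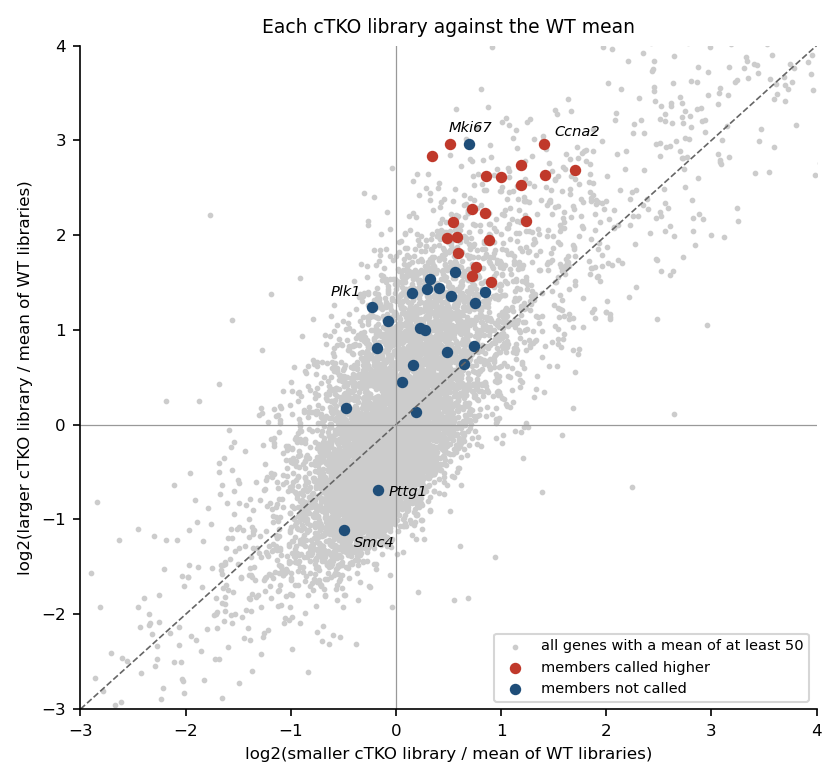
Level in the larger cTKO library (vertical) against that in the smaller cTKO library (horizontal), each as the log2 of its ratio to the mean of the WT libraries. Shown are the 43 genes and all tested genes with recovered reads whose mean reached 50 (grey, genes beyond the axes not drawn). Of the 43 genes, 39 lie above the dashed line of equal change, and 41 of 43 are above 0 on the vertical and 37 of 43 on the horizontal axis.

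The cyclins and kinases that start mitosis gave 3 called genes of 5 in the group around CDK1 and 0 of 2 among the entry kinases. Ccna2 (Entrez 12428, chromosome 3, 36564865 to 36573038, GRCm38.p6) codes for cyclin A2, which drives cells through S phase and into mitosis. Its normalized reads were 166 and 128 in the WT libraries and 1145 and 391 in the cTKO libraries, the larger library first. The lower cTKO value was 2.35 times the higher WT value, and the log2 fold change of 2.38 (SE 0.47, adjusted p 1.37e-05) had the smallest p of the 43 genes in the authors' deposited table. Foxm1 codes for the transcription factor that turns on many of the other members in G2. It had 86.5 and 58.9 normalized reads in WT and 517 and 91.9 in cTKO, so the groups were apart by little and the larger cTKO library stood 5.62 times above the smaller. Cdk1, the mitotic kinase itself, had 144 and 114 in WT and 411 and 219 in cTKO. The authors' deposited table gives log2 changes of 2.07 (SE 0.62, adjusted p 0.0111) for Foxm1 and 1.28 (SE 0.44, adjusted p 0.0317) for Cdk1.

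The B-type cyclins that activate CDK1 did not pass. Ccnb2 had 362 and 223 normalized reads in WT and 586 and 353 in cTKO, so that the groups overlapped, and Ccnb1 overlapped in the same way. Their log2 fold changes were 0.90 (adjusted p 0.202) for Ccnb1 and 0.68 (adjusted p 0.283) for Ccnb2 by the authors' deposited table. Aurka and Plk1, the kinases of the spindle poles and of mitotic entry, overlapped as well. Plk1 had 297 and 173 normalized reads in WT and 557 and 201 in cTKO, while Aurka had 180 and 124 in WT and 307 and 178 in cTKO. The log2 fold changes were 0.69 (adjusted p 0.382) for Plk1 and 0.67 (adjusted p 0.344) for Aurka by the authors' deposited table. For Plk1 the smaller cTKO library was at 0.855 times the WT mean.

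The chromosomal passenger complex, which corrects faulty attachments and later guides cytokinesis, gave 1 called gene of 3. Birc5, survivin, had 265 and 179 normalized reads in WT and 657 and 365 in cTKO. Cdca8, borealin, had 338 and 181 in WT and 441 and 364 in cTKO, with groups that were apart by a narrow margin. Birc5 had, by the authors' deposited table, a log2 fold change of 1.20 (adjusted p 0.0317), Aurkb, the kinase of the complex, 1.06 (adjusted p 0.115) and Cdca8 0.63 (adjusted p 0.327).

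The spindle checkpoint, which delays anaphase until every chromosome is attached, gave 3 called genes of 4, and in all 4 both cTKO libraries were above both WT libraries. Ttk, the kinase at the head of the checkpoint, had 39.5 and 16.2 normalized reads in WT and 180 and 90.7 in cTKO. Bub1 had 57.6 and 45.0 in WT and 297 and 117 in cTKO. Bub1b, the BubR1 protein, had 221 and 177 in WT and 785 and 297 in cTKO. The lower cTKO library was 2.29 times the higher WT library for Ttk, 2.03 times for Bub1 and 1.34 times for Bub1b. Mad2l1, which binds and blocks Cdc20, had 476 and 371 in WT and 755 and 706 in cTKO, and its cTKO libraries were within 1.07 times of each other. By the authors' deposited table the log2 fold changes were 2.27 for Ttk (SE 0.62, adjusted p 0.00415), 2.01 for Bub1 (SE 0.54, adjusted p 0.00335), 1.45 for Bub1b (SE 0.46, adjusted p 0.0173) and 0.79 for Mad2l1 (SE 0.34, adjusted p 0.101).

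The ubiquitin system that ends mitosis gave 2 called genes of 4. Ube2c, the enzyme that feeds ubiquitin to the anaphase-promoting complex, had 170 and 144 normalized reads in WT and 552 and 237 in cTKO. Cdca3, a trigger of mitotic entry that the same complex destroys, had 146 and 122 in WT and 379 and 251 in cTKO. Pttg1 codes for securin, the inhibitor of separase. It was among the most abundant members, with 1821 and 1602 in WT and 1061 and 1523 in cTKO, and here the larger cTKO library was the lowest. Cdc20, the activator of the complex, had 607 and 390 in WT and 682 and 519 in cTKO and overlapped. In the authors' deposited table the log2 fold changes were 1.33 for Ube2c (adjusted p 0.0304), 1.23 for Cdca3 (adjusted p 0.0263), 0.27 for Cdc20 (adjusted p 0.690) and -0.41 for Pttg1 (adjusted p 0.444).

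Of 4 kinetochore genes, 1 was called. Cenpf, a large protein of the outer kinetochore, had 71.6 and 58.9 normalized reads in WT and 437 and 149 in cTKO, with a log2 fold change of 2.17 (SE 0.53 and adjusted p 8.29e-04) by the authors' deposited table. Cenpe, a kinetochore motor, was apart between the groups with a log2 fold change of 1.17 (adjusted p 0.0882) by the authors' deposited table. Ndc80 and Nuf2, which together form the arm that grips microtubules, overlapped. Nuf2 had 130 and 86.6 in WT and 191 and 95.7 in cTKO, with a log2 fold change of 0.40 (adjusted p 0.665) by the authors' deposited table, and Ndc80 was at 0.41 (adjusted p 0.530) by the authors' deposited table.

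Motors and microtubule proteins of the spindle held 6 called genes of 8, and 7 of the 8 were apart between the groups. Kif11, the motor that pushes the spindle poles apart, had 226 and 166 normalized reads in WT and 1213 and 355 in cTKO. Nusap1, which bundles microtubules near chromosomes, had 219 and 157 in WT and 832 and 442 in cTKO. The lower cTKO value was 2.02 times the higher WT value for Nusap1 and 1.57 times for Kif11. Aspm, a spindle pole protein, had 66.7 and 32.3 in WT and 387 and 70.8 in cTKO. Ckap2l had 166 and 90.1 in WT and 495 and 236 in cTKO. For Aspm the smaller cTKO library was close to the larger WT library, and so it was for Hmmr, a spindle protein with 129 and 55.4 in WT and 403 and 134 in cTKO. Kif4, a motor on chromosome arms, had 79.1 and 52.0 in WT and 317 and 108 in cTKO. In the authors' deposited table the log2 fold changes of these genes ran from 1.51 for Ckap2l (adjusted p 0.0165) to 2.21 for Aspm (SE 0.67, adjusted p 0.0111), with a 3.99-fold rise for Kif11 (SE on the log2 scale 0.49, adjusted p 9.59e-04), 1.76 for Nusap1 (SE 0.41, adjusted p 4.15e-04), 1.70 for Kif4 (adjusted p 0.0228) and 1.55 for Hmmr (adjusted p 0.0486, the largest among the called members). Kif2c and Tpx2 did not pass. Tpx2, which activates Aurora A on the spindle, had 259 and 144 in WT and 543 and 247 in cTKO, so that it was the overlapping gene of the 8, with a log2 fold change of 0.97 (adjusted p 0.158) by the authors' deposited table.

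The central spindle and cytokinesis genes, which build the bundle between the separating chromosomes and the ring that cuts the cell, gave 2 called genes of 6. Anln, anillin of the contractile ring, had 52.7 and 35.8 normalized reads in WT and 209 and 79.5 in cTKO. Prc1, which bundles microtubules in the midzone, had 296 and 144 in WT and 859 and 308 in cTKO. Anln had, by the authors' deposited table, a log2 fold change of 1.70 (adjusted p 0.0340) and Prc1 of 1.41 (adjusted p 0.0376). Racgap1 and Kif23 are partners in the centralspindlin complex and had different patterns over the libraries. Racgap1 had 3022 and 3368 in WT and 4975 and 4994 in cTKO, with a cTKO pair that was almost equal, while Kif23 had 521 and 517 in WT and 587 and 374 in cTKO. Neither passed the test, with log2 fold changes of 0.64 (adjusted p 0.124) for Racgap1 and -0.11 (adjusted p 0.882) for Kif23 by the authors' deposited table. Ect2 was apart between the groups and Kif20a overlapped, and both had an adjusted p above 0.05 in the authors' deposited table.

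Among 7 genes of chromosome structure 2 were called, and the list held both ends of the range of fold changes that did not pass. Ncapg, a subunit of condensin I, had 98.8 and 78.5 normalized reads in WT and 552 and 236 in cTKO. Topoisomerase Top2a, which untangles sister chromatids, had 462 and 287 in WT and 2286 and 750 in cTKO. Their log2 fold changes were 2.15 (SE 0.47, adjusted p 1.32e-04) for Ncapg and 2.02 (SE 0.46, adjusted p 3.32e-04) for Top2a by the authors' deposited table. Mki67, the source of the Ki-67 protein used to stain cycling cells, had 319 and 155 in WT and 1839 and 384 in cTKO. The groups did not overlap. Its log2 fold change of 2.23 had an SE of 1.10, the largest among the 43 genes, and an adjusted p of 0.171 in the authors' deposited table. The spread within the genotypes was no wider than in Aspm, which was called with an SE of 0.67. The larger library stood above the smaller by 2.06 times in WT and 4.79 in cTKO for Mki67, and by 2.06 and 5.46 times for Aspm.

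The ATPases of the condensin core, Smc4 and Smc2, were not called. Smc4 (Entrez 70099, chromosome 3, 69004738 to 69034623, GRCm38.p6) had 8886 and 8547 normalized reads in WT and 4028 and 6178 in cTKO, both cTKO libraries below both WT libraries. Its log2 fold change of -0.77 (SE 0.32) did not pass the test over all genes, with an adjusted p of 0.0865 by the authors' deposited table. Smc2, its partner in the same ring, had 1047 and 707 in WT and 965 and 1000 in cTKO and overlapped, with a log2 fold change of 0.16 (adjusted p 0.801) by the authors' deposited table. Ncapd2, a further condensin I subunit, was apart between the groups, at 425 and 436 in WT and 1170 and 570 in cTKO. Its adjusted p of 0.0636 was the smallest among members that did not pass in the authors' deposited table. Cdca5, sororin, which protects cohesion, had an adjusted p of 0.0956 in the authors' deposited table.

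**Figure D3:**
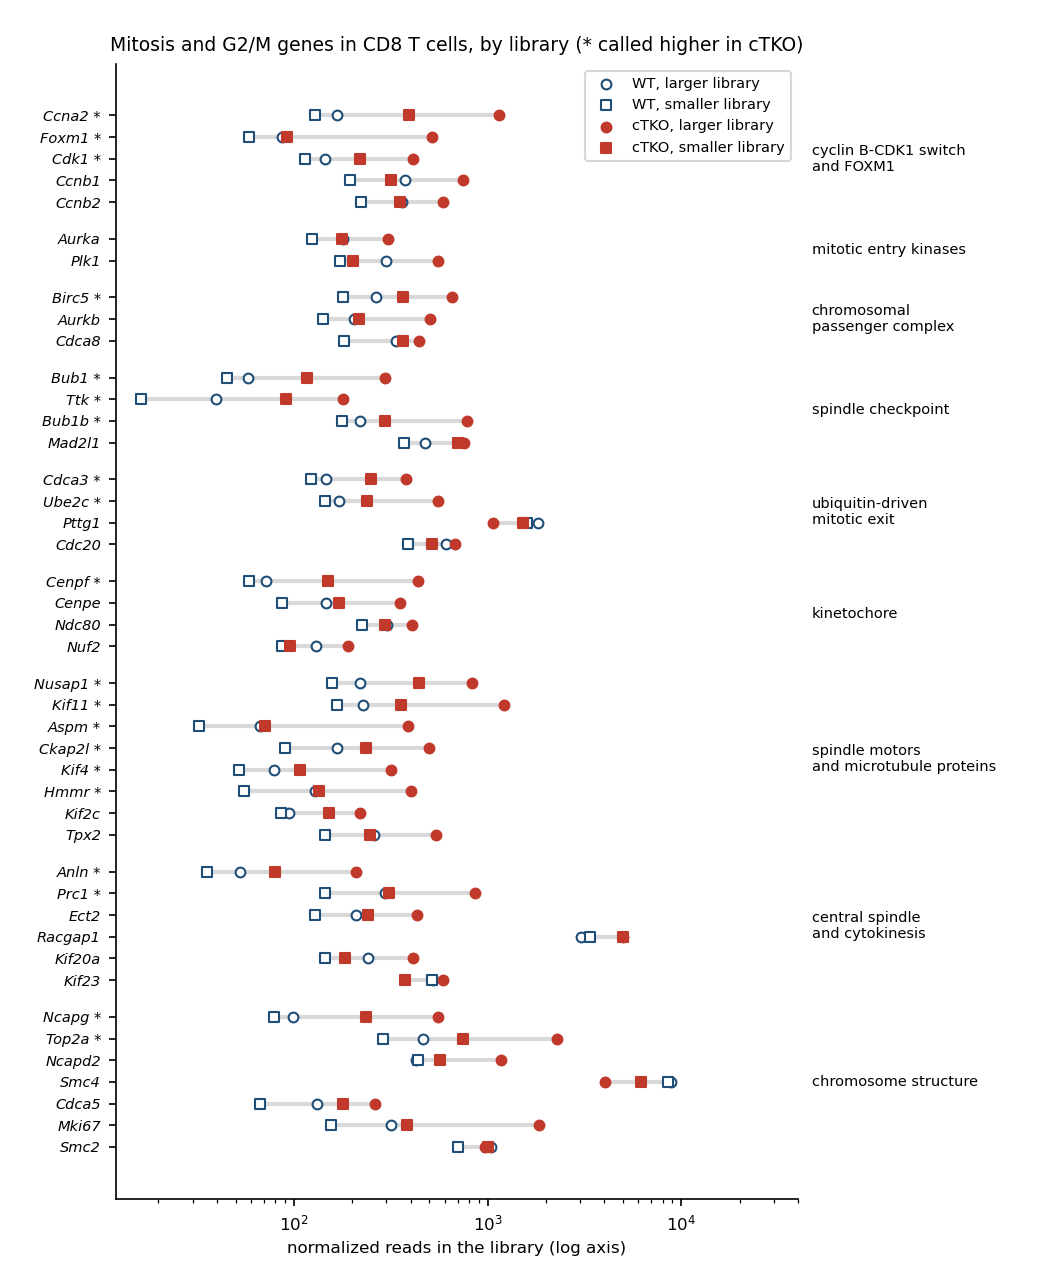
Normalized reads of each of the 43 genes in the 4 libraries (log axis), grouped by role. Open symbols are WT and filled red symbols cTKO, circles the larger and squares the smaller library, and an asterisk marks genes called higher. The larger cTKO library is rightmost for 39 genes, and Smc4 and Pttg1 show both cTKO libraries to the left.

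**Figure D4:**
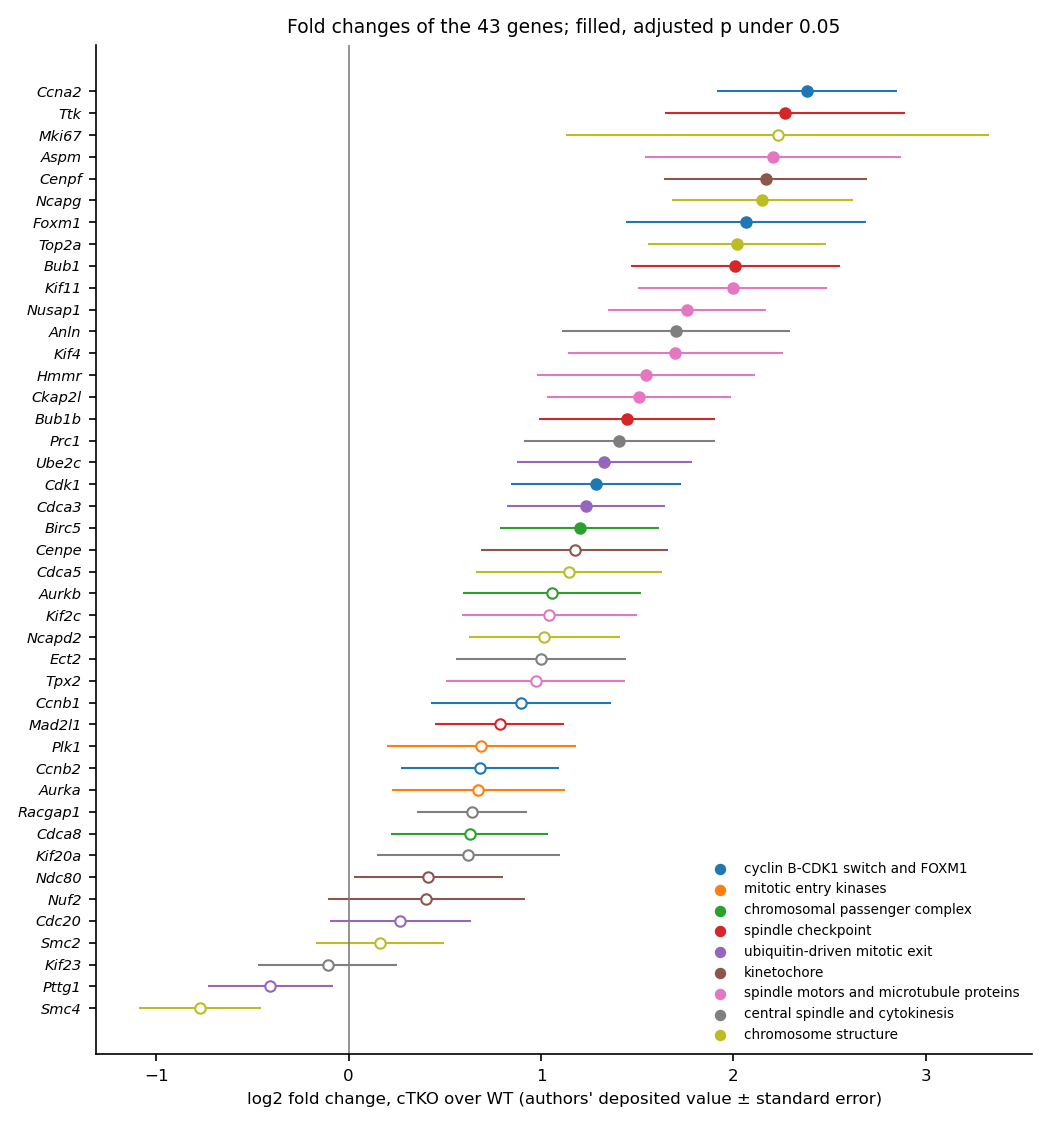
Log2 fold change, cTKO over WT, of each of the 43 genes in the authors' deposited table with its standard error, in order of size and coloured by role. Filled points, 20 of 43, passed an adjusted p of 0.05, and 3 points lie below 0.

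Levels were compared between genes per kilobase of exon (union of exons in GENCODE M21). In WT the highest mean levels per kb were those of Smc4 (1673 normalized reads per kb), Pttg1 (856), Racgap1 (451), Cdc20 (267) and Ccnb2 (191), and none of these 5 was called. The lowest were Cenpf (4.23), Aspm (4.27), Anln (4.88) and Ttk (5.66), and all 4 were called higher. In cTKO the mean levels per kb of those low genes were 19.0 for Cenpf, 19.7 for Aspm, 15.9 for Anln and 27.5 for Ttk. Across the 43 genes, Spearman's rho between the log2 fold change and the WT level per kb was -0.73. The same WT reads enter both quantities, and the genes share the 4 libraries, so the value is a description. The normalized reads of all 43 genes summed to 23558 and 20241 in WT and 34936 and 24371 in cTKO, where the smaller cTKO library was close to the larger WT library. Without the 3 most abundant genes Smc4, Racgap1 and Pttg1, chosen after their levels were seen, the summed normalized reads of the other 40 were 9829 and 6724 in WT and 24873 and 11676 in cTKO.

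The rest of the cell cycle program was read from lists that share no gene with the members except Foxm1. Of 84 further mitosis and G2/M genes, 15 were called higher (17.9%) and 0 lower, beside 9.77% and 3.61% of all genes with an adjusted p. Their median log2 fold change was 0.90. In the authors' deposited table the smallest p-values among them belonged to Espl1, the separase that cuts cohesin (log2 fold change 3.15, adjusted p 3.23e-04), and Ncapg2, a condensin II subunit (2.48, adjusted p 4.64e-04). Espl1 had 26.4 and 26.6 normalized reads in WT and 417 and 49.7 in cTKO, so that most of its reads lay in the larger cTKO library. Kntc1, Cks2, Knl1, Arhgap11a, Pimreg, Wee1, Stmn1, Depdc1a, Cdca2 and Esco2 followed in order of p. Of these, Cks2, which binds CDK1, had 161 and 159 in WT and 516 and 359 in cTKO, and Stmn1, a microtubule destabilizer, 2033 and 1404 in WT and 3431 and 3282 in cTKO. By the annotation in the deposited table, 313 other tested genes belong to cell division, and 29 of them (9.27%) were called higher with a median log2 fold change of 0.01, close to all genes. Of the members, 33 carry that annotation, 12 of them called.

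DNA replication and G1/S genes, which act before G2, had a median log2 fold change of 0.16. Of 52 genes 7 were called higher (13.5%) and 1 lower (1.92%), beside 9.77% and 3.61% of all genes with an adjusted p. Among the 7 were E2f2, Dtl, Pole, Clspn, E2f7 and Tk1, and the lower gene was Rpa1, a subunit of the single-strand binding protein of replication. E2f2 had 123 and 101 normalized reads in WT and 506 and 335 in cTKO, while Pole, the leading-strand polymerase, had 128 and 117 in WT and 573 and 225 in cTKO. Rpa1 had 8346 and 5640 in WT and 3132 and 3826 in cTKO, a pattern like that of Smc4. The log2 fold change by the authors' deposited table was 1.91 for E2f2 (adjusted p 6.28e-05) and -1.01 for Rpa1 (adjusted p 0.0176). The difference between this list and the mitosis genes was not tested.

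Of 13 subunits of MuvB and DREAM, the complexes that act on the CHR, Foxm1 was called higher and Lin37, a MuvB subunit, lower (log2 fold change -0.97, adjusted p 0.0497 by the authors' deposited table), and the median was 0.03. Mybl2, the B-MYB gene, had 107 and 79.7 normalized reads in WT and 189 and 90.7 in cTKO, which did not pass. The pocket proteins did not pass either: Rbl2 had 1867 and 1949 in WT and 4306 and 2487 in cTKO (adjusted p 0.0851 by the authors' deposited table), and Rbl1 1162 and 1001 in WT and 1238 and 973 in cTKO. Among CDK inhibitors and antiproliferative genes 3 of 11 tested genes were called higher (27.3%) and 0 lower, beside the same 9.77% and 3.61%. Cdkn1a, the p21 inhibitor, had 13.2 and 3.46 in WT and 82.8 and 85.7 in cTKO. Cdkn2c, the p18 inhibitor of CDK4 and CDK6, had 111 and 107 in WT and 350 and 333 in cTKO. In both genes the cTKO libraries were close to each other, where the larger stood at a median of 2.06 times the smaller in the mitosis genes. Cdkn2b had 0 reads in both WT libraries and 29.0 and 28.6 normalized reads in cTKO. Cdkn1b, the p27 inhibitor, had 346 and 507 in WT and 687 and 499 in cTKO and did not pass. By the authors' deposited table the log2 fold changes were 3.29 for Cdkn1a (adjusted p 3.76e-04), 1.64 for Cdkn2c (adjusted p 5.28e-04) and 0.48 for Cdkn1b (adjusted p 0.421).

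**Figure D5:**
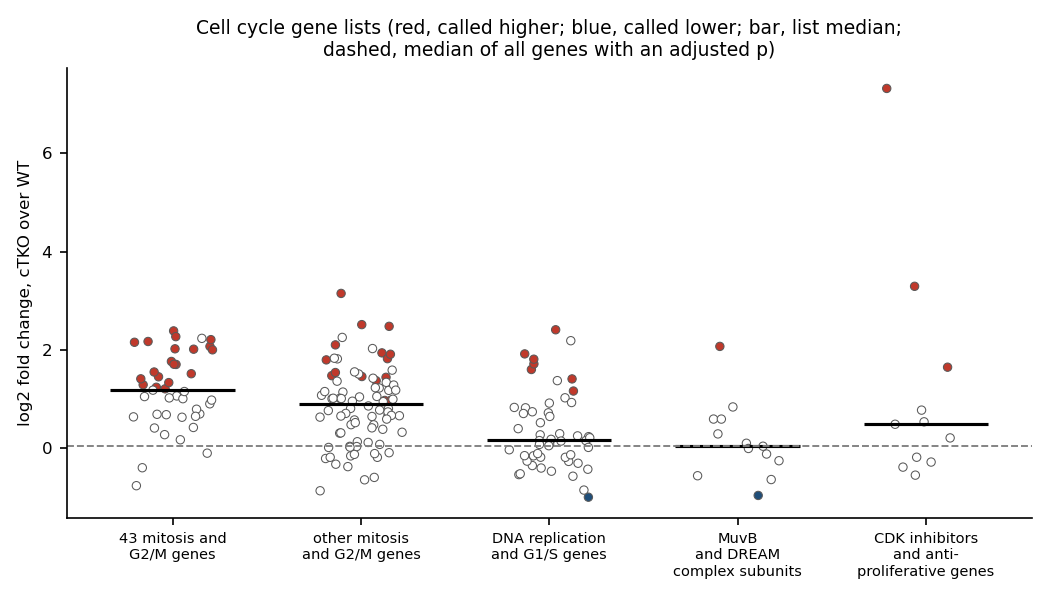
Log2 fold change, cTKO over WT, of the 43 genes and of 4 other cell cycle lists, each point 1 gene. Red points were called higher and blue ones lower in the authors' deposited table, bars are list medians (1.17, 0.90, 0.16, 0.03 and 0.48 from left to right), and the dashed line is the median over all tested genes, 0.04.

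Markers were read beside these counts. The sorted cells carried the CD8 T cell markers, with means of 20303 normalized counts for Cd8a and 31813 for Cd8b1 in the authors' deposited table and 0 of 9 such markers called. Of 16 effector and memory genes of CD8 T cells 15 were called higher, and the summed normalized reads of the 11 with reads per library were 11401 and 9748 in WT and 28660 and 26023 in cTKO. Of 9 natural killer cell genes 7 were higher and Fcer1g was lower, with sums of 1825 and 1996 in WT and 11609 and 10286 in cTKO. These lists share Eomes and Gzma. Of the 12 myeloid and dendritic genes Itgax and Itgam were called higher. Sums over the list were 166 and 167 in WT and 2532 and 875 in cTKO, while 5 of the 12 had under 10 reads in every library. Itgax, with 2012 and 632 normalized reads in cTKO, and Itgam, with 360 and 171, held most of the cTKO sums. In the order larger WT, smaller WT, larger cTKO, smaller cTKO, Lyz2 had 20, 11, 43 and 6 reads and Csf1r 2, 3, 25 and 6. S100a8 had 22 reads, S100a9 19 and Mpo and Elane 2 each, all in the larger cTKO library. Adgre1 had 2, 0, 4 and 0 reads in the same order. Xcr1 with 84, 48, 74 and 43 reads, Flt3 with 2, 8, 2 and 2 and Cd14 with 2, 1, 1 and 0 were not highest in that library.

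Cell types of the spleen that can divide were read in the same way. Of 10 germinal centre B cell and plasmablast genes, 6 of them tested, 0 were called. Their sums, in which Xbp1 was the largest, were 2628 and 2441 in WT and 2721 and 2502 in cTKO. Jchain and Irf4 differed between libraries of a genotype and were highest in the larger cTKO library: levels were 36.2 and 404 (WT) against 574 and 96.9 (cTKO) for Jchain, with 28.8 and 57.7 (WT) against 90.3 and 21.1 (cTKO) for Irf4. Of 10 erythroid precursor genes, 6 tested, 0 were called, with sums of 109 and 120 in WT and 127 and 93.2 in cTKO. Of 10 B cell genes, 6 tested, Cd79b was called lower, with sums of 1554 and 1135 in WT and 980 and 282 in cTKO, and Pax5 had 1 read in all. Cd79b held most of the WT sums, with 1327 and 880 in WT and 146 and 180 in cTKO. Cd22, with 171 and 151 in WT and 748 and 47.2 in cTKO, and Cr2, with 1.65 and 9.24 in WT and 33.1 and 8.70 in cTKO, were highest in the larger cTKO library and were not called. Of 6 CD4 T cell genes Zbtb7b was called higher, and sums were 249 and 231 in WT and 361 and 180 in cTKO. The part of the effector, natural killer, myeloid, B cell and plasmablast genes in the mitosis result was not tested.

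The calls were also made with limma on the recovered reads of 11028 genes, and here each library could be left out. Each percentage in brackets below is the share of all genes tested that was called higher, not the share of the members. On all 4 libraries 7 members were called higher (9.41% of genes tested), and all 7, Bub1, Ccna2, Cenpf, Ncapg, Nusap1, Top2a and Ttk, were among the 20. With the animal's sex as a block, which compares larger with larger and smaller with smaller library, 23 members were called higher (15.2% of genes tested), the 20 and Cdca5, Cenpe and Mki67. On 4 libraries this fit has little left to measure spread, so its p-values lean on variance shared between genes. For Mki67 the limma adjusted p went from 0.0771 to 8.39e-06 with the block, and the log2 fold change only from 1.93 to 1.96. Without the larger cTKO library 2 were called, Ccna2 and Ncapg (6.97% of genes tested), and the median log2 fold change of the 43 genes from the reads was 0.56. Without the smaller WT library 1 was called, Ccna2 (6.25% of genes tested), and without the larger WT library 8 (4.32% of genes tested). Without the smaller cTKO library 34 were called (23.5% of genes tested). A library that is alone in its genotype is assumed to vary like the others. Ccna2 was called in each of these fits, with a log2 fold change from 1.40 without the larger cTKO library to 2.95 without the smaller one. Smc4 was below 0 in each of them and was called lower when the smaller cTKO library was left out.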

How the data were processed

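RNA from 12 samples is described in the labels, and the values used here are those of 4 CD8 T cell samples, 2 animals a genotype, which are separate animals per the labels' titles. STAR and DESeq2 were used, with mm10 and GRCm38.p6, per the submitters' processing notes, and the sources used here name no counting tool, strand setting or version. Per the file headers, the authors' mean normalized count of a gene is a signal, counts over size factors averaged over libraries. Fold changes and their SE are on the log2 scale as the authors deposited them. The test score that the authors deposited equals the fold change over its SE, and p-values are as deposited, with an adjusted one for 12972 of 18153 genes with a read. The means of all genes sum to 16257610. The deposited table names no sample columns.

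Whole reads per library were solved from the mean, the fold change and its SE with Python 3.11.15 and numba 0.67.0: the 4 lowest means give what 1 read weighs in each library. A gene's reads are the whole numbers that return its deposited values. This gave 1 solution for 16183 of 16214 genes with a mean above 0 and below 2000 (99.8%, median fold change error 7.18e-09), and the members were also solved above that mean. For Racgap1 2 sets of reads came close and the one with the far smaller error was kept. The search was tested on simulated data. Calls are those of the authors' test at an adjusted p under 0.05, on these 4 animals. Its p-values rest on the deposited SE, which did not simply follow a gene's own spread between the libraries (Mki67 against Aspm, above). limma 3.58.1 (R 4.3.3), with voom weights and the recovered size factors, was fitted to the reads of 11028 genes, with Benjamini-Hochberg adjustment.

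The members, the roles and the lists were chosen with earlier results of these data known. Named are all called members, those with the smallest and the largest fold change of each role, and of other lists the called genes, at most 12 by smallest p. Further alternatives were other thresholds, filters, centring and scaling, each library left out, the animals' sex as a block and other pseudocounts.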

Additional observations from a re-analysis of the deposited data

How the results depend on the processing

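The number of members called higher was 20 with the deposited test, beside 9.77% of all genes tested. It was 8 at an adjusted p under 0.01 (6.35% of all genes tested). With limma on the recovered reads it was 7 (9.41%), and with trimmed mean scaling 10 (10.1%). With limma on log2 values it was 5 at a pseudocount of 0.5 (8.23%) and 7 at a pseudocount of 2 (8.79%). Those 5 are 11.6% of the members, near the share over all genes. Leaving out 1 library gave 1 to 34. It stayed within 1.5 times of 20 with a threshold of 0.10, with other filters, after re-centring and with the sex block. Of all genes tested, 12.6% were called higher at 0.10, 11.4% after re-centring and 15.2% with the sex block. Called lower were 5.98% at 0.10 and 3.59% with trimmed mean scaling. These shares over all genes stand beside the counts of the other lists below as well. Members called lower, 0 with the deposited test, were 1 (Smc4) at 0.10 and with trimmed mean scaling, and 0 to 1 with a library left out. The further mitosis genes called higher, 15, became 5 at 0.01, 23 at 0.10, 3 with limma, 6 with trimmed mean scaling, 28 with the sex block, 1 with either pseudocount and 0 to 47 with a library left out, and those called lower, 0, became 1 at 0.10 and 0 to 2 with a library left out. The DNA replication genes called higher, 7, became 4 at 0.01, 3 with limma and with either pseudocount and 1 to 17 with a library left out, and those called lower, 1, became 0 at 0.01 and with either pseudocount, 2 at 0.10 and 0 to 1 with a library left out. The MuvB and DREAM gene called higher, 1, became 0 at 0.01, with limma, with trimmed mean scaling and with either pseudocount, 2 at 0.10 and after re-centring, and 0 to 2 with a library left out. The gene called lower, 1, became 0 at 0.01, with no filter, after re-centring, with limma, with trimmed mean scaling and with either pseudocount, and 0 to 1 with a library left out. The CDK inhibitors called higher, 3, became 1 when adjusted over genes whose mean reaches 50. Cdkn1a (mean 46.3) and Cdkn2b (mean 14.4) lie under that mean, so this filter left them out and they did not fail its test. What moved the other counts was not tested.

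The median log2 fold change of the members, 1.17, kept its sign in every alternative run, from 0.56 without the larger cTKO library to 1.54 without the smaller one. Re-centring moved all genes by 0.10. Of 645 member values under the alternatives 6 changed sign, each with a library left out. Over the 4 fits with a library left out, the log2 fold change ran from -0.204 without the larger to 1.26 without the smaller cTKO library for Plk1, from -0.0637 to 1.10 between the same fits for Kif20a, from -0.175 to 0.812 for Nuf2 and from -0.473 to 0.177 for Kif23. It ran from -0.0246 without the smaller to 0.611 without the larger WT library for Cdc20, and from -0.0921 to 0.474 for Smc2. The share of promoters with a CHR core, 78.4%, was 27.0% in the 100 bases before the start, and 70.3% from 50 bases before to 50 after it, a window chosen after seeing the data. With 2 animals a group, which differ in sex and library size at once, no value here separates these from chance between animals. No paired analysis was possible because the replicate numbers in the labels are not shared between the groups. The sex block matches animals by sex alone and does not replace such pairing.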
